A study of Mus musculus with 6 samples.

Results

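The genes described here are the renin-angiotensin and brush border peptidase genes of mouse induced renal epithelial cells: Enpep, Anpep, Mme, Dpp4, Ace, Agt, Agtr1a, Lnpep and Atp6ap2. They were matched by symbol and Ensembl identifier, and all 9 of them were found among the 49671 genes counted in each library. The set was chosen by name around Enpep, a gene picked from its Cre over Flp ratio in these same libraries, so the Cre over Flp values of the 9 genes are given as a description and support nothing by themselves. All 9 passed the filter on low counts, as did 15355 genes in all.

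Induced renal epithelial cells (iRECs) are mouse fibroblasts reprogrammed towards kidney tubule cells with transcription factors, and these came from the strain B6.129S4-Pkd1tm2Ggg/J, which carries a floxed Pkd1 gene. Pkd1 encodes polycystin-1, the protein most often lost in dominant polycystic kidney disease. The Cre group held cells transduced with Cre recombinase and labelled Pkd1 -/-, and the Flp group held cells with Flp recombinase and labelled Pkd1 fl/fl, so both groups carry the targeted strain background and a recombinase. Each group had 1 library from each of the clones numbered 4, 7 and 21, that is 3 against 3, grown to confluence in serum medium, and each clone pair is a single cell line with no repeat culture. Whether the clones came from different animals is not stated, and the spread reported here is that between clone pairs. Total counts ran from 25196120 (Flp clone 4) to 46918341 (Cre clone 21), and the Cre library was the deeper of its pair in clones 4 and 21 but not in clone 7. As a check of the cell type, the summed level of 7 epithelial markers was 3189 to 4504 CPM (read counts scaled to library size) in the 6 libraries and that of 15 proximal tubule and brush border markers 5920 to 7795 CPM, while 8 fibroblast markers summed to between 4.65 and 29.4 CPM, with Thy1 at 0 in every library. The proximal tubule sum was carried mostly by the endocytic receptor genes Lrp2 and Cubn (means of 2858 and 1365 CPM) and by Hnf4a (1270 CPM), itself one of the factors used to make iRECs. Slc34a1, Slc5a1, Slc5a2, Slc22a6, Slc9a3, Slc3a1, Cdhr5 and Aqp1, which encode transporters, a water channel and a brush border adhesion protein, were low, with means of 0.573 (Slc9a3) to 5.18 CPM (Aqp1). Podocyte markers summed to 52.1 to 161 CPM, most of it Synpo in each library. The targeted gene Pkd1 was at 145 CPM in Cre and 199 in Flp for clone 4, 105 against 229 in clone 7, and 118 against 166 in clone 21, lower in Cre in every clone. Gene counts cover the whole gene and not the floxed exons alone.

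Enpep was the member with the largest shift of one direction. It was 2.48-fold higher in the Cre than in the Flp library of clone 4, 2.44-fold in clone 7 and 2.19-fold in clone 21. Ace went the other way in each clone, at 0.744, 0.801 and 0.746 of the Flp level in clones 4, 7 and 21. Mme stood highest in both libraries of clone 7, while Anpep and Dpp4 stood highest in the Flp library of that clone and not in its Cre library. Lnpep and Atp6ap2 stayed within 1.27-fold and 1.23-fold between the lowest and the highest library.

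The renin-angiotensin system is a chain of peptide cuts. Renin releases angiotensin I from angiotensinogen (Agt), angiotensin-converting enzyme (Ace) trims it to angiotensin II, and angiotensin II acts on the type 1 receptor (Agtr1a) to raise blood pressure and salt uptake. In the proximal tubule the brush border, the dense microvilli facing the urine, carries peptidases that break such peptides down: aminopeptidase A (Enpep) removes the first residue of angiotensin II, aminopeptidase N (Anpep) takes the next product further, and neprilysin (Mme) and dipeptidyl peptidase 4 (Dpp4) cut many small peptides.

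The sequences shown first are those upstream of Enpep and Ace, which besides the sparsely read Agtr1a are the members whose clone ratios all had one sign, and of Atp6ap2, among the steadiest members. RefSeq promoter windows on GRCm38.p6 were matched for 8 of the 9 genes (not for Agtr1a), and the 250 bases before each start site are printed in the direction of transcription. Capitals mark TATAAA, the TATA box, or CAAAGT, a half-site of the nuclear receptor HNF4, on either strand, so that a match on the opposite strand reads TTTATA or ACTTTG in the printed window. The windows are chr3:129332750-129332999 (minus strand) for Enpep, chr11:105967698-105967947 for the first Ace start, chr11:105974939-105975188 for a second start inside Ace, and chrX:12587509-12587758 for Atp6ap2.
Enpep: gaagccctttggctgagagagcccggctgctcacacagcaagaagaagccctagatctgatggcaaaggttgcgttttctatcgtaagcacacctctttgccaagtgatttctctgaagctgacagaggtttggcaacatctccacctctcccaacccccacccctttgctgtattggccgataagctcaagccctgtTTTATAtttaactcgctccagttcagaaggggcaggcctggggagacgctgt
Ace, first start: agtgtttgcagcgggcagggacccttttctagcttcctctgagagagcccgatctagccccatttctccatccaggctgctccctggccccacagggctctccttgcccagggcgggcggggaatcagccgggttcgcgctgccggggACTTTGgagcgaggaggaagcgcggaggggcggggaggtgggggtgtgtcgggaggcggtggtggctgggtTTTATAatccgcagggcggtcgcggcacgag
Ace, second start: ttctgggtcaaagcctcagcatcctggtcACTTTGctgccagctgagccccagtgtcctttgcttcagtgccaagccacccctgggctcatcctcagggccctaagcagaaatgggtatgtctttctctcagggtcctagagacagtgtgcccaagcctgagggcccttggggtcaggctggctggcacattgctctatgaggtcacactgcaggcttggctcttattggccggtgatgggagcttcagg
Atp6ap2: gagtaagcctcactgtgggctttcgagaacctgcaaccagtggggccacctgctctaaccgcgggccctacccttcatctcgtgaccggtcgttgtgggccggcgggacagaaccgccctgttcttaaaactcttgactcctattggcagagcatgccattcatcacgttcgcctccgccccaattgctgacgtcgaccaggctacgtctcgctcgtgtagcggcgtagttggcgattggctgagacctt

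The Enpep window held a TATA box match on the opposite strand, whose first base lay 52 bases before the start site. For the first Ace start, an opposite-strand TATA box match lay 31 bases before it and an HNF4 half-site, also on the opposite strand, 102 bases before it. The window of the second Ace start, which lies within the gene, held an opposite-strand HNF4 half-site 221 bases before it. The Atp6ap2 window held none of the searched letters. Among the other windows, the TATA box letters were found 30 bases before the Agt start and 227 before the Dpp4 start, and the HNF4 half-site 79 bases before a start of Mme. Over all 32851 RefSeq windows cut in the same way, 12.4% held the TATA box letters and 12.6% the HNF4 half-site. A half-site of HNF1, spelled GTTAAT (6.43% of all windows), was in no member's window. The same held for the core bound by EMX homeodomain proteins, spelled TAATTA (4.84%). No matches overlap each other. CG pairs, which mark the promoters of widely used genes, numbered 0 for Agt, 4 for Dpp4 and 6 for Enpep, 6 being also the median of all windows. They numbered 19 for the first Ace start, 1 for the second, 20 for Atp6ap2, 23 for Anpep and 25 for Lnpep, and 2, 27 and 27 for the Mme starts. Counts per gene do not separate the Ace starts, so the level of Ace below is the sum of both.

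Between genes, levels were compared as RPKM, the CPM divided by the length of a gene's merged exons in kilobases. The order of the mean over the 6 libraries was Ace (124 RPKM), Atp6ap2 (93.4), Anpep (50.1), Enpep (8.51), Lnpep (4.32), Mme (3.54), Agt (0.976), Dpp4 (0.524) and Agtr1a (0.174). Ace stood above 98.5% of the tested genes on this scale, Atp6ap2 above 97.6% and Anpep above 94.0%. Enpep lay above 60.1% and Agtr1a above 5.18%. Most neighbours in this order overlapped over the libraries: Ace ran from 82.9 to 173 RPKM and Atp6ap2 from 82.5 to 102, and the highest Anpep value, 84.8 in Flp clone 7, reached the lowest of Atp6ap2. The clear step was that from Anpep, never below 32.2 RPKM, to Enpep, never above 20.2. Below it, Enpep (from 3.34), Lnpep (3.73 to 4.72) and Mme (1.05 to 6.99) overlapped, as did Mme with Agt (0.457 to 1.88), Agt with Dpp4 (0.113 to 2.0) and Dpp4 with Agtr1a (0.0985 to 0.277). So the cells held much mRNA of the converting enzyme and of aminopeptidase N, and little of the precursor and the receptor. With the longest transcript as the length, Mme and Lnpep changed places (ranks 5 and 6) and the other 7 ranks held.

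**Figure D1:**
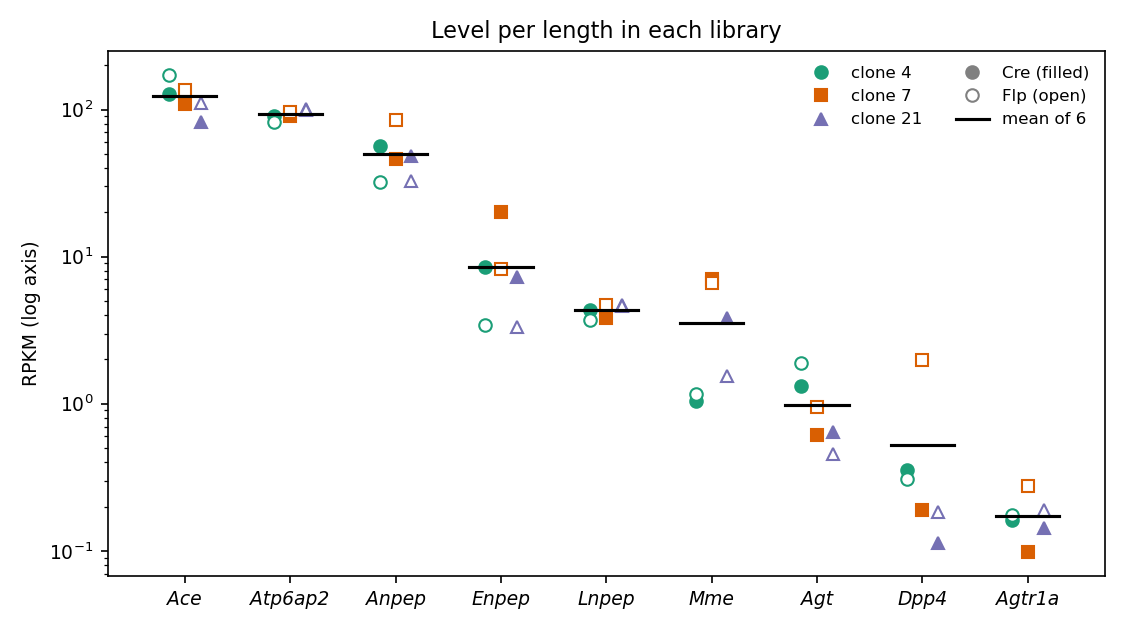
Level per length of the 9 genes in each library, as RPKM on a log axis, ordered by the mean of the 6 libraries (bar); filled symbols are Cre and open symbols Flp, with a symbol and colour for each clone. Ace, Atp6ap2 and Anpep sit above 32.2 RPKM in every library, Enpep between 3.34 and 20.2, and Agt, Dpp4 and Agtr1a at or below 2.0.

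The first question about the pathway is how much of its starting material the cells made. Agt (ENSMUSG00000031980, chromosome 8, 124556534 to 124569706) encodes angiotensinogen, the only precursor of the angiotensins. Its level was 2.48 CPM in Cre and 3.55 in Flp for clone 4, 1.17 against 1.79 in clone 7, and 1.22 against 0.863 in clone 21, from 23 to 105 reads per library. The Flp library was the higher in clones 4 and 7 and the lower in clone 21, and the groups overlapped. The fitted log2 fold change, Cre over Flp with clone as a block, was -0.23 (SE 0.38). Ren1, which encodes renin, had 0 reads in every library, which allows up to 0.0632 CPM in the deepest and 0.121 CPM in the shallowest library (3 reads, counting error only).

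Atp6ap2 (ENSMUSG00000031007, chromosome X, 12587801 to 12617049) encodes the (pro)renin receptor, which is also an accessory subunit of the vacuolar proton pump that acidifies endosomes and lysosomes. It was at 235 CPM in Cre and 216 in Flp for clone 4, 237 against 253 in clone 7, and 266 against 261 in clone 21. These 6 values lie close together, with clone 21 the highest, and the fitted log2 fold change was 0.02 (SE 0.10).

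Ace (ENSMUSG00000020681, chromosome 11, 105967945 to 105989964) encodes the enzyme that makes angiotensin II and is a marker of the proximal tubule brush border. Its level was 680 CPM in Cre and 914 in Flp for clone 4, 578 against 722 in clone 7, and 438 against 588 in clone 21, or 565 ± 121 in Cre and 741 ± 164 in Flp (SD, n = 3). Flp was the higher in each pair by a similar factor, yet the groups overlapped because clone 4 was high and clone 21 low in both. The log2 ratios were -0.43, -0.32 and -0.42 in clones 4, 7 and 21, and the fitted value -0.39 (SE 0.10). The authors' deposited table lists -0.36 (SE 0.11) for Ace. Of the merged exons, 5.58% are shared with the antisense Gm11651, which had 2 to 9 reads per library against 15653 or more for Ace.

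The receptor that answers to angiotensin II was close to the detection limit. Agtr1a (ENSMUSG00000049115, chromosome 13, 30336441 to 30382867) had 8 to 31 reads per library. Its level was 0.450 CPM in Cre and 0.485 in Flp for clone 4, 0.274 against 0.771 in clone 7, and 0.400 against 0.525 in clone 21. Cre was the lower in every pair, mostly in clone 7, and in all 3 Cre libraries the level was below the lowest Flp value. The fitted log2 fold change was -0.65 (SE 0.49). The other angiotensin receptor genes Agtr1b and Agtr2 had 0 reads in every library.

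Among the enzymes that break angiotensin peptides down, Enpep (ENSMUSG00000028024, chromosome 3, 129269175 to 129332720, minus strand) turns angiotensin II into angiotensin III. It was at 40.0 CPM in Cre and 16.1 in Flp for clone 4, 94.9 against 38.9 in clone 7, and 34.5 against 15.7 in clone 21, from 399 to 2768 reads per library. The Cre library was the higher in every pair, and clone 7 was high in both groups, so that Flp clone 7 stood above Cre clone 21 and the groups overlapped. The means were 56.5 ± 33.4 CPM in Cre and 23.6 ± 13.3 in Flp (SD, n = 3). In contrast with that spread, the log2 ratios within clones were close together, at 1.31, 1.28 and 1.13 in clones 4, 7 and 21, with a fitted value of 1.24 (SE 0.12). All 3 ratios above 1, as for Enpep, were seen in 35 of 15355 tested genes, or 0.228%. Since Enpep was picked from its ratio in these same libraries, nothing is read from this share. The authors' deposited table lists a log2 fold change of 1.08 (SE 0.14) and a mean normalised count of 1357 for Enpep, and the same mean from the count files was 1356.

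Anpep (ENSMUSG00000039062, chromosome 7, 79821803 to 79861059) encodes the zinc aminopeptidase also called CD13, which acts on angiotensin III. It was at 234 CPM in Cre and 133 in Flp for clone 4, 192 against 351 in clone 7, and 199 against 135 in clone 21. The Cre values lay together and the Flp values fell on both sides of them, 2 below and 1 above. The means, 208 ± 22.6 CPM in Cre and 206 ± 125 in Flp (SD, n = 3), were therefore alike while the clone ratios were 0.81, -0.87 and 0.56 on the log2 scale. The fitted value was 0.18 (SE 0.33).

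Mme (ENSMUSG00000027820, chromosome 3, 63241537 to 63386030) encodes neprilysin, which cleaves natriuretic and other small peptides and also makes angiotensin 1-7. Its level was 12.1 CPM in Cre and 13.5 in Flp for clone 4, 80.7 against 76.9 in clone 7, and 44.2 against 17.9 in clone 21. Clone 7 was high and clone 4 low whichever recombinase was used, and the recombinase groups differed mainly in clone 21. The log2 ratios were -0.16, 0.07 and 1.30 in clones 4, 7 and 21, with a fitted value of 0.40 (SE 0.30).

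Dpp4 (ENSMUSG00000035000, chromosome 2, 62330073 to 62412231) encodes a serine peptidase of the brush border that clips incretin hormones. It was at 2.22 CPM in Cre and 1.94 in Flp for clone 4, 1.20 against 12.6 in clone 7, and 0.716 against 1.16 in clone 21. A single library, Flp clone 7 with 508 reads, stood 5.68-fold above the next highest, and the other 5 had 31 to 94 reads. The clone ratios were 0.19, -3.33 and -0.66 on the log2 scale. The fitted value of -1.27 (SE 0.76) became -0.23 when clone 7 was left out. Of its merged exons, 3.67% are shared with the antisense Gm13561, which had at most 3 reads in any library.

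Lnpep (ENSMUSG00000023845, chromosome 17, 17521410 to 17625050) encodes insulin-regulated aminopeptidase, an enzyme of intracellular vesicles that binds angiotensin IV. It was at 61.2 CPM in Cre and 52.7 in Flp for clone 4, 54.5 against 66.2 in clone 7, and 66.7 against 65.6 in clone 21. The groups overlapped, and the fitted log2 fold change was -0.01 (SE 0.13).

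**Figure D2:**
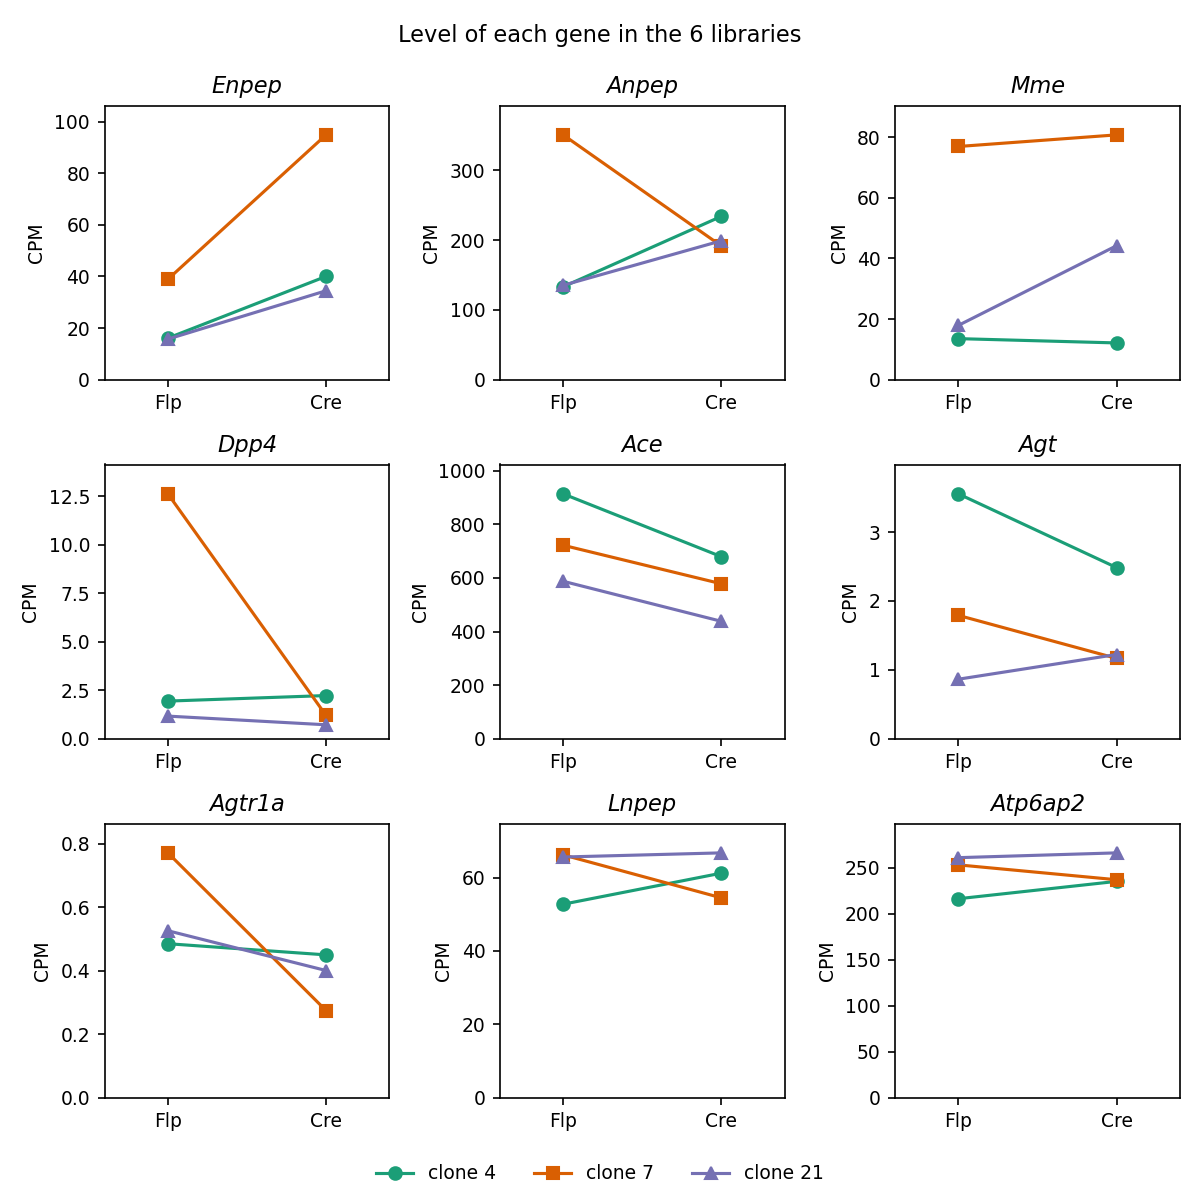
Level of each gene in CPM (axes start at 0) in the Flp and Cre library of each clone, joined by a line per clone. The Enpep lines all rise from Flp to Cre (15.7 to 34.5 CPM in clone 21, 38.9 to 94.9 in clone 7) and the Ace lines all fall, while the Anpep, Mme, Dpp4, Agt, Lnpep and Atp6ap2 lines go both ways.

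Side by side, 1 of the 9 genes (Enpep) had a higher level in Cre in every clone, where 14.6% of all tested genes did, and 2 (Ace and Agtr1a) had a lower one, where 13.1% did. Since Enpep led to the choice of the set, nothing is read from these shares. The median fitted log2 fold change was -0.01 over the 9 genes and 0.00 over all tested genes. With edgeR's quasi-likelihood test and the clone block, 0 of the 9 genes passed an adjusted p of 0.05, as did 0% of all 15355 tested (2 of the 9, Enpep and Ace, and 1047 of all had an unadjusted p under 0.05). By DESeq2 with the clone block 1 of the 9 (Enpep) was called and 1.28% of all genes, and by edgeR with no filter on low counts 1 (Enpep) and 0.792% of 28286 genes. The authors' deposited table has 1 of the 9 (Enpep) at an adjusted p under 0.05, and 1.37% of the genes with an adjusted p there. For all 9 genes the mean normalised count in the authors' deposited table was between 0.978 and 1.02 times that computed from the count files.

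Anpep, Lnpep and Atp6ap2 were higher in the deeper library of every clone, a pattern shown by 3 of the 9 genes and by 12% of all tested genes. The part of library depth in their values was not tested. Enpep and Ace did not show this pattern, since their direction was the same in every clone. The part of depth in their values was not tested either.

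**Figure D3:**
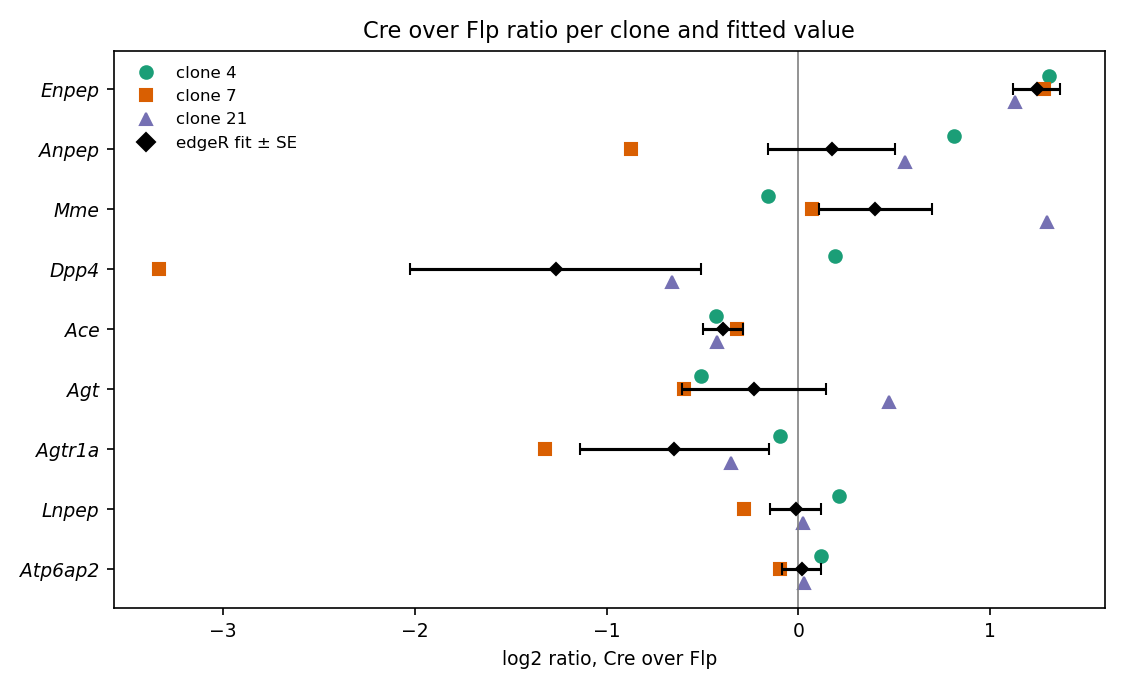
Log2 ratio of Cre over Flp per clone (coloured symbols) and the value fitted over all clones with its standard error (black). The 3 Enpep ratios lie between 1.13 and 1.31 and the 3 Ace ratios between -0.43 and -0.32, whereas those of Dpp4 span -3.33 to 0.19.

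Genes near Enpep and Ace had ratios centred close to 0. Within 5 Mb on each side of Enpep, the 28 genes averaging 5 CPM or more had median log2 ratios of -0.14, 0.07 and -0.003 in clones 4, 7 and 21, and 0 of them had a ratio above 0.5 in all 3 clones. Around Ace, 102 such genes had medians of -0.04, 0.09 and -0.03, and 0 of them had a ratio below -0.3 in all 3. Over all 10742 such genes the clone medians were -0.04, 0.03 and -0.002. The same window around Dpp4, whose lowest ratio was in clone 7, held 16 genes with a median of -0.13 in that clone. Around Mme, 22 genes had a median of 0.12 in clone 21. As Enpep was picked from its ratio in these same libraries, nothing is read from its distance to its neighbours. The share of all genes beyond the limits of 0.5 and -0.3 is not given here. The part of position in the ratios of these genes was not tested.

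**Figure D4:**
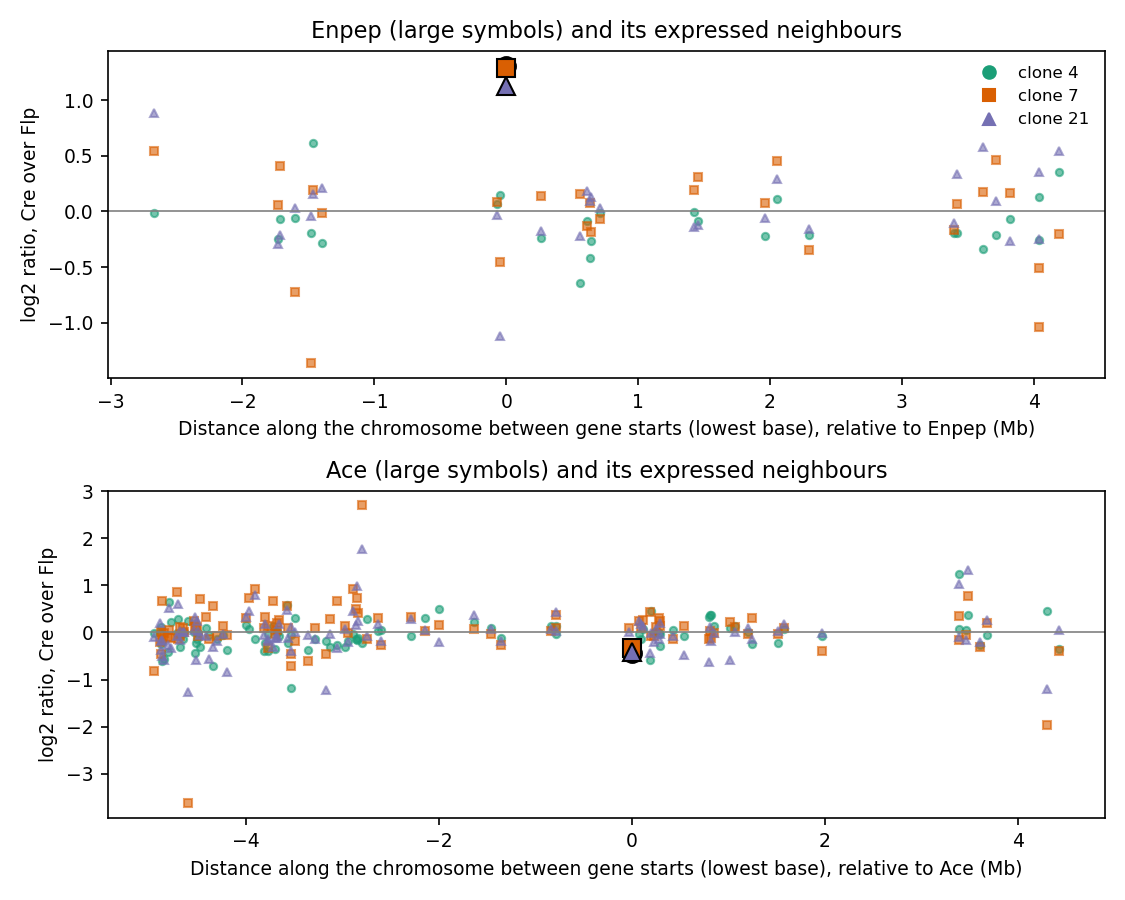
Log2 ratio of Cre over Flp of each expressed gene against its distance from Enpep (upper panel) or Ace (lower panel), within 5 Mb; the large outlined symbols at 0 are Enpep and Ace. The Enpep ratios of 1.13 to 1.31 stand above those of the 28 neighbours in all clones, and the Ace ratios lie within the cloud of its 102 neighbours. Enpep was picked from its ratio in these same libraries, so nothing is read from its place above them.

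A second comparison asked whether the levels of the 9 genes differed between the clones with the recombinase group held constant. This contrast is not the one that led to Enpep, but it was made because the members' levels vary among clones. Its values for the 9 genes are therefore a description and support nothing by themselves. The mean level of Mme was 12.8, 78.8 and 31.0 CPM in clones 4, 7 and 21, a range of 6.15-fold. That of Enpep was 28.1, 66.9 and 25.1 CPM, with clone 7 the highest in both groups. That of Ace was 797, 650 and 513 CPM, in the same order in the Cre and in the Flp libraries. Agt stood at 3.02, 1.48 and 1.04 CPM, with clone 4 highest in both groups. In edgeR's quasi-likelihood test with Benjamini-Hochberg adjustment, 0 of the 9 genes passed the threshold, with adjusted p = 0.154 for Enpep, 0.252 for Mme, 0.442 for Ace and 0.606 for Agt, against 0.00651% of all genes, that is 1 gene, Vwce, named here after its value was seen. Unadjusted, these 4 of the 9 genes had a p under 0.05, and 8% of all tested genes did. The DESeq2 likelihood ratio test called 3 of the 9 (Enpep, Mme and Ace) and 2.7% of all genes, and edgeR with no filter on low counts 2 of the 9 (Enpep and Mme) and 1.83%. The calls of a clone difference thus depended on the tool and the filter. Anpep, Dpp4, Agt, Agtr1a, Lnpep and Atp6ap2 were called by none of these 3 fits. The mean Dpp4 level was 2.08, 6.91 and 0.940 CPM in clones 4, 7 and 21, and the high value of clone 7 came from its Flp library alone.

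Flp clone 7 was the library with the highest level of Anpep, Dpp4 and Agtr1a. Beside this, 5 of the 15 proximal tubule and brush border markers had their highest level in that library, and 5 others had theirs in Cre clone 7. Among the former were Lrp2 (3937 CPM, against 2315 to 3049 in the others) and Aqp1 (12.4 CPM, against 0.274 to 7.31). Of 9 further kidney surface peptidases, 0 were highest in Flp clone 7, and Ggt1 was lowest there (410 CPM, against 423 to 883). The share of all genes with their highest level in Flp clone 7 is not given here, so nothing is read from these counts. Fibroblast markers summed to 11.8 CPM in Flp clone 7, within the range of the other libraries, and Fap, the fibroblast relative of Dpp4, was at 0.199 CPM there. The part of these differences in the Dpp4 and Anpep values was not tested. As each library is from a whole culture, more cells that make a transcript and more of it per cell cannot be told apart.

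Genes with a pattern most like a member's were ranked by the root mean square difference of log2 CPM over the 6 libraries, each gene centred on its own mean, among 10245 named coding genes averaging 5 CPM or more. Nearest to Enpep were Clca1, Atxn7l2 and Car14, at 0.250, 0.253 and 0.313, where Enpep itself spread by 0.881 around its mean. All 3 lie on chromosome 3, as Enpep does, at 145003817, 108202222 and 95897768, none within 5 Mb of it. The share of the compared genes on chromosome 3 is not given here, and the part of position in this likeness was not tested. For Ace the nearest was H2-DMa (0.0454), for Anpep Tmem8 (0.0974), for Mme Map7 (0.441) and for Dpp4 Kcnma1 (0.472). For Agt it was Ldlrad3 (0.147), for Agtr1a Pgm5 (0.0589), for Lnpep Vps29 (0.0244) and for Atp6ap2 Ei24 (0.0178). Of all pairs of members, Lnpep and Atp6ap2 had the smallest difference (0.0625). Both varied little, by 0.137 and 0.102 around their own means, and any pair of flat genes lies close on this measure.

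Among 15 other renin-angiotensin genes, 7 were tested, 0 passed in either direction by edgeR with the clone block, and their median log2 fold change was -0.05. Prcp, a lysosomal peptidase that can remove the last residue of angiotensin II, had the highest level per length of this list (12.3 RPKM), with 60.8 ± 3.94 CPM in Cre and 74.2 ± 3.31 in Flp (SD, n = 3) and a log2 fold change of -0.29 (SE 0.11, edgeR adjusted p = 0.708). The receptor genes Mas1 and Mrgprd of the counter-regulatory arm had at most 0.0710 CPM and 0 reads, and the proteases Cma1 and Ctsg, which make angiotensin II outside the converting enzyme, were at 0 reads and at most 0.0751 CPM.

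Families of the members' enzymes showed the same lack of calls. Of 8 other M1 aminopeptidases, the zinc enzymes related to Enpep, Anpep and Lnpep, 6 were tested and 0 passed with edgeR, with a median of 0.03. The puromycin-sensitive aminopeptidase Npepps had the highest level of these (23.3 RPKM, log2 fold change 0.04, SE 0.10). Lta4h, the leukotriene A4 hydrolase, stood at 0.35 (SE 0.10, edgeR adjusted p = 0.646) with Cre higher in every clone, and Aopep at 0.22 (SE 0.14). Of 6 other genes of the neprilysin family 2 were tested: Ece2 at -0.29 (SE 0.32) and Ece1, an endothelin-converting enzyme, at 0.60 (SE 1.01), whose level was 13.7 CPM in Cre clone 21 and 1.03 to 2.46 in the other libraries. Of 9 genes of the Dpp4 family and other dipeptidyl or acyl peptidases 8 were tested, with a median of 0.03 and 0 called. The lysosomal Dpp7 had the highest level (62.8 RPKM, log2 fold change -0.12, SE 0.22), and Apeh stood at -0.15 (SE 0.10).

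Of 9 further peptidases of the kidney cell surface 6 were tested and 0 passed with edgeR, with a median of 0.17. Ggt1, the gamma-glutamyltransferase of the brush border, was at 190 RPKM, above Ace on the same scale. Its level in CPM was 677 in Cre and 883 in Flp for clone 4, 858 against 410 in clone 7, and 423 against 638 in clone 21, so that clone 7 went against the others (log2 fold change 0.02, SE 0.33). Tmprss2, a serine protease, stood at 1.38 (SE 0.47, edgeR adjusted p = 0.674), with 132 CPM in Cre clone 7 against 22.3 in Flp clone 7 and nearly equal levels in clone 4 (41.1 and 39.9 CPM). In edgeR with no filter Tmprss2 passed (adjusted p = 0.0118). The carboxypeptidase Cpm stood at -0.09 (SE 0.17). The dipeptidase gene Dpep1 and the meprin gene Mep1b, which mark the mature brush border, were at most 0.450 and 0.118 CPM. The other meprin gene, Mep1a, was at 6.96 (Flp clone 7) to 13.2 CPM (Cre clone 7).

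Partners of Atp6ap2 and Lnpep ranged from steady genes to some that varied far more than these members. Of 21 subunits of the vacuolar proton pump 18 were tested, 6 with a positive and 12 with a negative fold change, a median of -0.03 and 0 called by edgeR. Tcirg1, a membrane subunit, stood at -0.51 (SE 0.17, edgeR adjusted p = 0.654), and Atp6ap1, the other accessory subunit, at -0.06 (SE 0.11) with 124 RPKM. Of 9 genes of the vesicles that carry Lnpep with the glucose transporter GLUT4, all were tested and 0 passed, with a median of 0.08. Slc2a4, which encodes GLUT4, had at most 2.67 CPM and stood at 2.11 (SE 0.61, edgeR adjusted p = 0.635). Tbc1d4, which holds these vesicles back until insulin acts, was at 31.6 CPM in Cre and 8.53 in Flp for clone 7, 21.6 against 3.27 in clone 21, and 4.42 against 4.24 in clone 4 (log2 fold change 1.59, SE 0.52, edgeR adjusted p = 0.658). Tbc1d4 passed with DESeq2 and the clone block (adjusted p = 0.0368) and in edgeR with no filter (adjusted p = 0.0263). Rab10 stood at 0.02 (SE 0.10). Of 13 effectors of the angiotensin receptor 12 were tested and 0 passed, with a median of -0.02. Rcan1, a calcineurin regulator, had the highest level (76.6 RPKM, log2 fold change 0.04, SE 0.20), Plcb3 stood at -0.03 (SE 0.10), and Plcb1 at -1.32 (SE 0.49, edgeR adjusted p = 0.686). Reads of Npepps, Aopep, Ece2, Rab10, Plcb1 and Plcb3 may include those of genes that overlap their exons.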

How the data were processed

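Total RNA of 6 libraries was sequenced. The submitters' processing notes name, with no roles, DESeq2 2.11.40.1, featureCounts 1.6.0.3, STAR 2.5.2b-2, Trim Galore 0.4.3.0 and FastQC 0.67, and the builds GRCm38 and mm10. The strand setting was not given in the sources used here, nor was the annotation release. The authors deposited read counts for each Ensembl gene. Per the file headers, the authors' comparison table holds a mean normalised count (a signal), a log2 fold change with its standard error, a Wald score, a p-value and an adjusted p-value. Its header gives no direction. Higher in Cre was taken as positive because 95.3% of the signs matched over 12854 genes.

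Symbols, coordinates and exon lengths came from GENCODE M21 on GRCm38, which holds 49412 of the 49671 identifiers. In R 4.3.3, edgeR 4.0.16 was fitted across all genes (filterByExpr, TMM, quasi-likelihood test, Benjamini-Hochberg adjustment, threshold 0.05) with clone as a block and 2 residual degrees of freedom. Alternatives used DESeq2 1.42.0 and limma 3.58.1. Standard errors came from the F statistic, CPM from TMM-scaled library sizes, and clone ratios from log2 CPM with a prior count of 2. The series design pairs the libraries by clone. As a check, the 2 libraries of a clone deviated from their group means with correlations of 0.20 (clone 4), 0.11 (clone 7) and 0.30 (clone 21). Both tests were also run on simulated counts of 15355 genes, where 50 genes each were given a 1.5-, 2-, 4- or 8-fold shift. The Cre against Flp test recovered 10%, 66%, 88% and 98% of these, in that order, and made 15 false calls. For the clone test the shares were 8%, 40%, 78% and 92%, with 18 false calls. Shifts of 1.5-fold were thus mostly missed in the simulated counts. With the real counts, 0 of 15355 genes passed the Cre against Flp test, though 35 had all 3 clone ratios above 1 on the log2 scale. Enpep, with a fitted log2 fold change of 1.24, had an adjusted p of 0.324 in edgeR's quasi-likelihood test. The simulated shares are therefore not taken as the power of either test here. A lack of calls excludes neither shifts of 1.5-fold nor larger ones. Figures used matplotlib 3.10.9.

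The genes, lists and motifs were chosen with earlier results of these data known, and the TATA box was added after the windows were read. Named besides the 9 genes were, in each pathway list, the genes with the smallest p in either comparison and with the highest RPKM, any gene past the threshold, and the 3 genes most like each member, of which only the nearest is given for 8 of them. Other names were chosen after their values were seen. Some genes named by this rule are not reported here.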

Additional observations from a re-analysis of the deposited data

Results flagged for a closer look

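For 6 of the 9 genes the clones' Cre over Flp ratios lay on both sides of 0. Ratios of mixed sign were also seen in 11094 of all 15355 tested genes, so nothing is read from this count. The gap between the highest and the lowest clone ratio, on the log2 scale, was 3.53 for Dpp4, 1.68 for Anpep, 1.46 for Mme, 1.07 for Agt, 0.50 for Lnpep and 0.22 for Atp6ap2. With 1 Cre and 1 Flp library per clone, the difference between clones in this ratio was not tested. Of these genes, Dpp4, Anpep, Agt, Lnpep and Atp6ap2 had their lowest ratio in clone 7 and Mme in clone 4. For Agt the ratio was nearly as low in clone 4 (-0.51) as in clone 7 (-0.59). The share of all genes with their lowest ratio in clone 7 is not given here, so nothing is read from this count. Clone 7 was the clone whose Cre library was the shallower, and the part of depth in these ratios was not tested.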

How the results depend on the processing

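No gene passed the threshold between Cre and Flp in edgeR with the clone block, nor with no replicate block (0), with limma-voom, RLE or upper quartile scaling, a minimum of 5 CPM, an adjusted p of 0.1 or without replicate 4, 7 or 21 (0 to 0), whereas 196 genes passed with DESeq2 and the block and 224 in edgeR with no filter on low counts. Between clones, 1 gene passed in edgeR, 414 in the DESeq2 likelihood ratio test, 519 with no filter, 0 with a minimum of 5 CPM and 0 to 4 when a clone was left out. The cause of these gaps was not tested.

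Enpep stayed at a log2 fold change of 1.21 to 1.30 and Ace at -0.42 to -0.37 over 10 alternatives. The adjusted p of Enpep ran from 1.64e-10 (DESeq2 with the clone block) to 0.980 (edgeR with no replicate block). All alternatives used the libraries from which Enpep was picked, so nothing is read from its steady value. When a clone was left out the sign turned for Anpep (-0.16 to 0.69), Mme (-0.045 to 0.67), Lnpep (-0.13 to 0.12), Atp6ap2 (-0.034 to 0.076), Atp6ap1 (-0.13 to 0.0024), Cpm (-0.32 to 0.053), Dpp7 (-0.43 to 0.13), Ece1 (-0.71 to 1.64), Ggt1 (-0.49 to 0.34), Rab10 (-0.032 to 0.086) and Rcan1 (-0.23 to 0.28). Dpp4 kept its sign at -2.11 to -0.23. Agtr1a, with at most 31 reads, is limited by depth.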
